A study of Mus musculus with 68 samples.

Results

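DNA polymerase epsilon copies the leading strand of the replication fork. It consists of the catalytic subunit POLE, the second subunit POLE2 and a small pair of histone-fold subunits, POLE3 and POLE4, which bind DNA and parental histones H3–H4 and help pass old histones to the leading strand. POLE3 also pairs with CHRAC1, another histone-fold protein, in the chromatin remodelling complex CHRAC, so that POLE4 and CHRAC1 are alternative partners of POLE3. The genes Pole, Pole2, Pole3, Pole4 and Chrac1 were read by their Ensembl identifiers from the count tables of 3 experiments, as 5 of 55335 gene rows in each table, and all 5 passed the filter on low counts in every table.

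All samples are untreated mouse embryonic stem cells (ESCs) of the male line E14JU, grown with serum and LIF, and measured by strand-specific total RNA-seq after rRNA depletion. In the POLE4 experiment, WT#1 was compared with the knockout clones POLE4-KO#1, POLE4-KO#2 and POLE4-KO#3, with 3 libraries each. In the rescue experiment, WT#1, the histone-binding mutant of the helicase subunit MCM2 (MCM2-2A#2) and the line in which that mutation was reversed (MCM2-R#2) have 4 cultures each. In the clone experiment, 7 WT and 8 MCM2-2A clones give 8 WT and 9 MCM2-2A units, a unit being a clone in the batch of January, March or August. Each knockout line is 1 clone, as are MCM2-2A#2 and MCM2-R#2, so that libraries of a line measure the spread within that clone. The study describes the libraries of the POLE4 experiment as biological replicates. MCM2-R#2 carries a line number in the table's columns that differs from the one in its sample titles and is labelled as wild-type genotype, and its name was taken from the study.

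Libraries hold 18369196 to 26975105 counts in the POLE4 experiment, 23161127 to 61759096 per culture in the rescue experiment and 27854706 to 67467849 in the clone experiment. The ESC markers Pou5f1, Nanog, Sox2, Zfp42, Esrrb and Klf4 were present in every library of the POLE4 experiment, from 90.3 CPM (the count scaled by the size of the library) for the lowest value of Klf4 to 932 CPM for the highest of Pou5f1. Their summed level was 2037 to 2444 CPM in WT#1, 2279 to 2671 in POLE4-KO#1 and 1978 to 2552 in POLE4-KO#2, which overlap. POLE4-KO#3 lay below all WT#1 libraries, at 1735 to 1916 CPM. The summed level of the 7 fibroblast markers separated the knockout clones, with 78.8 to 80.1 CPM in WT#1, 69.8 to 88.4 in POLE4-KO#3, 9.29 to 11.2 in POLE4-KO#2 and 5.07 to 5.53 in POLE4-KO#1, while Postn, Lum and Dcn stayed below 0.5 CPM in every library. The high sums are mostly Col1a1, which reached 65.8 CPM, against at most 13.8 for Thy1, 5.83 for Col3a1 and 3.98 for Col1a2. The part of the ESC and fibroblast markers in the results below was not tested.

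The RefSeq promoter table (GRCm38.p6) holds entries for 3 of the 5 genes, Pole2, Pole3 and Pole4. Short stretches around motif letters found in the 250 bases before their start sites are shown because these subunits are compared with one another throughout, and capitals mark the motif.
Pole3, chr4:62525046-62525072, minus strand: ttttagcgacGCGGGAAgtccagacac
Pole4, chr6:82652892-82652918, minus strand: tctacccggcGCGGGAAaggggccgaa
Pole4, chr6:82652966-82652991, minus strand: gagtcagaggGGGCGGttctggcgcg
Pole2, chr12:69228217-69228242, minus strand: aagaatataaGGGCGGgacaaggggt
The E2F letters GCGGGAA, searched on both strands, occur in the windows of Pole3 and Pole4 and not in that of Pole2, and in 3.82% of all 32851 windows of this length. The Sp1 letters GGGCGG occur in those of Pole4 and Pole2, and in 32.7% of all windows. The NF-Y letters CCAAT occur in none of the windows of these 3 genes and in 33.8% of all. These motifs do not overlap one another in the stretches shown, and a match describes letters and not binding.

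Per length of annotated exons, Pole4 was the highest of the genes in WT#1 of the POLE4 experiment. Its level was 23.7 CPM per kb, against 13.8 for Pole3, 12.4 for Pole, 9.21 for Pole2 and 4.97 for Chrac1 (means of 3 libraries). The libraries of Pole3 (12.3 to 15.6) and Pole (11.3 to 13.3) overlap, while each of the other neighbours in this order is separated in all 3 libraries. The order was the same in the WT#1 cultures of the rescue experiment (18.3, 11.2, 10.7, 5.85 and 4.68) and in the WT units of the clone experiment (25.3, 12.1, 10.3, 7.63 and 3.09). Lengths are those of all annotated exons of a gene.

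Pole4, at chr6:82618992-82705365 on the minus strand of mm10, is the targeted gene, and its counts check the labels of the knockout clones. WT#1 had 56.2, 61.3 and 60.7 CPM. POLE4-KO#1 had 3.02, 2.87 and 3.75 CPM, POLE4-KO#2 7.11, 6.43 and 8.35, and POLE4-KO#3 3.33, 2.97 and 4.85. Every knockout library lay far below every WT#1 library, and the 3 libraries of POLE4-KO#2 lay above the other 6 knockout libraries. The mean was 5.41% of WT#1 in POLE4-KO#1, 12.3% in POLE4-KO#2 and 6.26% in POLE4-KO#3.

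In the edgeR fit across all genes, Pole4 fell by 4.20 on the log2 scale in POLE4-KO#1 (SE 0.16, adjusted p = 3.42e-11), by 3.02 in POLE4-KO#2 (SE 0.14, adjusted p = 1.81e-09) and by 3.97 in POLE4-KO#3 (SE 0.16, adjusted p = 2.77e-10). A gene is called here at an adjusted p under 0.01 with a log2 fold change beyond 0.58 in either direction. Pole4 was the only called gene among the 5 in each of these comparisons, in which 11.5%, 11.3% and 2.98% of the 16864 genes tested were called. For the mean of the 3 clones against WT#1, Pole4 fell by 3.73 (SE 0.10, edgeR adjusted p = 1.39e-12), and 968 genes (5.74%) were called. That number rests on the spread within clones, and with the 9 knockout libraries as 1 group 23 genes were called, Pole4 among them. All of these comparisons share the WT#1 libraries.

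Reads assigned to Pole4 remained in every knockout library, with 55 to 192 counts. They differed between clones. POLE4-KO#1 was lower than POLE4-KO#2 by a log2 fold change of -1.17 (SE 0.17, edgeR adjusted p = 7.05e-05), and POLE4-KO#2 was higher than POLE4-KO#3 by 0.95 (SE 0.16, edgeR adjusted p = 0.00045). Between POLE4-KO#1 and POLE4-KO#3 the log2 difference was -0.22 (SE 0.18, edgeR adjusted p = 0.353) and did not pass. In comparisons between knockout clones 9.93% (POLE4-KO#1 against #2), 10.2% (#2 against #3) and 16.5% (#1 against #3) of genes were called. The antisense gene Gm44145, which lies inside the annotated span of Pole4, had 1 count in 1 of the 12 libraries and 0 in the others. Gm44145, at chr6:82680132-82694822, lies upstream of the RefSeq start sites of Pole4 used above, near chr6:82652875. Where in Pole4 the remaining reads lie cannot be read from a count per gene.

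**Figure D1:**
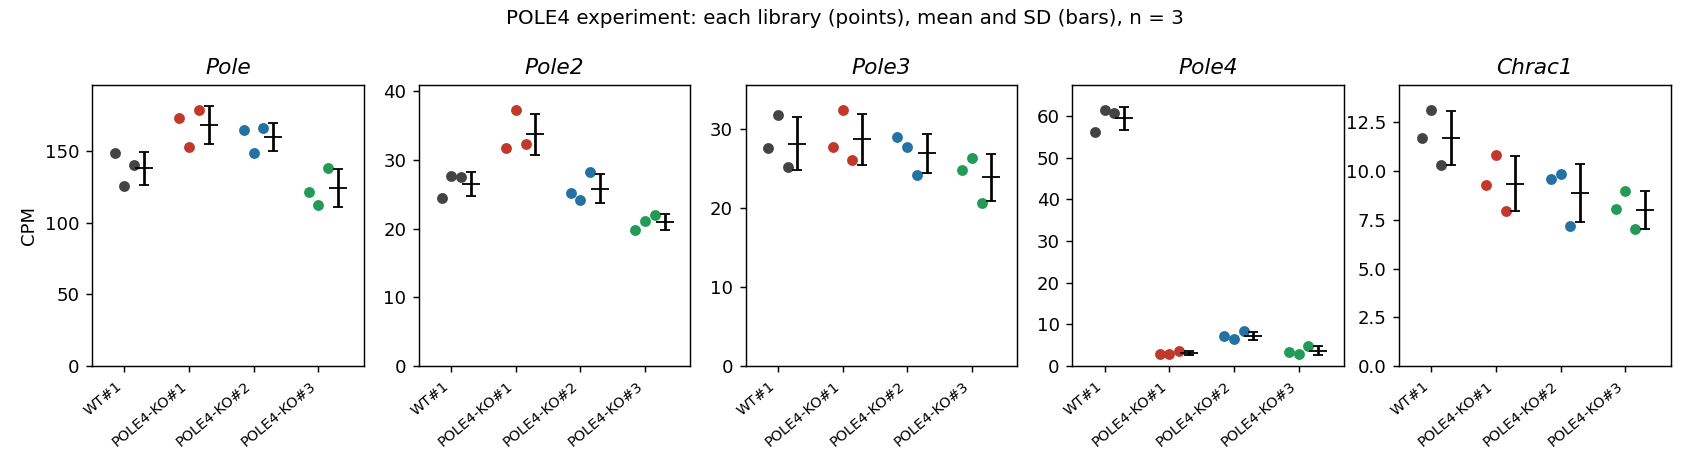
Level in CPM (vertical axis, from 0) of the 5 genes in the POLE4 experiment, with 1 point per library and bars for the mean and SD of 3 libraries. Pole4 drops from 56.2 to 61.3 CPM in WT#1 to 2.87 to 8.35 CPM in the knockout clones, while the clone means of the other genes stay between 68.4% and 127% of the WT#1 mean.

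The catalytic subunit gene Pole (chr5:110286306-110337474, plus strand) was not called in any knockout clone against WT#1. WT#1 had 148, 126 and 140.1 CPM, POLE4-KO#1 173, 153 and 178, POLE4-KO#2 165, 148 and 166, and POLE4-KO#3 121, 112 and 138. All libraries of POLE4-KO#1 and POLE4-KO#2 lay above those of WT#1, and POLE4-KO#3 overlapped WT#1. The lowest POLE4-KO#2 library, at 148.4 CPM, was only just above the highest WT#1 library, at 148.3. The log2 fold change was 0.28 (SE 0.09, edgeR adjusted p = 0.0246) in POLE4-KO#1, 0.21 (SE 0.09, adjusted p = 0.0838) in POLE4-KO#2 and -0.16 (SE 0.09, adjusted p = 0.27) in POLE4-KO#3. Between clones, Pole was 0.44 higher in POLE4-KO#1 than in POLE4-KO#3 (SE 0.09, edgeR adjusted p = 0.00103) and 0.37 higher in POLE4-KO#2 than in POLE4-KO#3 (SE 0.09, adjusted p = 0.00586). Both pass the limit on p but not that on the fold.

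Pole2 (chr12:69201773-69228195, minus strand), the subunit that tethers the catalytic subunit to the replicative helicase, was the only other gene of the 5 with a call. It had 24.5, 27.6 and 27.5 CPM in WT#1, 31.8, 37.2 and 32.3 in POLE4-KO#1, 25.2, 24.1 and 28.2 in POLE4-KO#2, and 19.8, 21.2 and 22.0 in POLE4-KO#3. POLE4-KO#1 lay above and POLE4-KO#3 below all WT#1 libraries. Pole2 was higher in POLE4-KO#1 than in POLE4-KO#3 by 0.68 (SE 0.09, edgeR adjusted p = 2.67e-05). Against WT#1 the values were 0.35 in POLE4-KO#1 (SE 0.09, edgeR adjusted p = 0.00909), which passes on p and not on the fold, -0.04 in POLE4-KO#2 (SE 0.09, adjusted p = 0.783) and -0.34 in POLE4-KO#3 (SE 0.09, adjusted p = 0.0257). The mean over the clones was -0.01 (SE 0.08, edgeR adjusted p = 0.948), since the clones lie on either side of WT#1.

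The summed level of the 10 S-phase markers was also highest in POLE4-KO#1, at 1417 to 1446 CPM. It was 1162 to 1222 CPM in WT#1, 1177 to 1270 in POLE4-KO#2 and 1142 to 1207 in POLE4-KO#3, which overlap. Its part in the level of Pole2 was not tested.

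Pole3 (chr4:62522649-62525068, minus strand), which encodes the partner of POLE4, was not called in any comparison. WT#1 had 27.5, 31.7 and 25.1 CPM, POLE4-KO#1 27.7, 32.3 and 26.0, POLE4-KO#2 28.9, 27.7 and 24.1, and POLE4-KO#3 24.8, 26.3 and 20.6. The groups overlap. The log2 fold changes against WT#1 were 0.03 (SE 0.12, edgeR adjusted p = 0.901), -0.07 (SE 0.12, adjusted p = 0.699) and -0.24 (SE 0.12, adjusted p = 0.193) for clones #1, #2 and #3.

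Chrac1 (chr15:73090392-73097554, plus strand), which encodes the other partner of POLE3, was below WT#1 on average in all 3 clones without passing the call. WT#1 had 11.7, 13.1 and 10.3 CPM, POLE4-KO#1 9.27, 10.8 and 7.96, POLE4-KO#2 9.58, 9.86 and 7.18, and POLE4-KO#3 8.05, 8.94 and 7.001. POLE4-KO#2 and POLE4-KO#3 lay below all WT#1 libraries, and 1 library of POLE4-KO#1 overlapped WT#1. The log2 fold changes were -0.33 (SE 0.15, edgeR adjusted p = 0.117), -0.40 (SE 0.15, adjusted p = 0.0537) and -0.55 (SE 0.15, adjusted p = 0.0249), and -0.43 for the mean of the clones (SE 0.12, adjusted p = 0.0181). Over the alternatives of that mean the adjusted p of Chrac1 ran from 0.00141 to 0.137 and the log2 fold change from -0.51 to -0.34, with no call in 16 of 16. The summed level of 6 genes kept as signs of RNA quality (3 mitochondrial genes and the nuclear RNAs Malat1, Neat1 and Gm26917) was 106300 to 126100 CPM in WT#1, 123700 to 148700 in POLE4-KO#1, 126100 to 192600 in POLE4-KO#2 and 141600 to 183400 in POLE4-KO#3, and its part in the level of Chrac1 was not tested.

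In each of the 3 clones, library 3 had the highest Pole4 and the lowest Chrac1 and Pole3 of its clone. With the library number as a replicate block, Pole4 was at -1.19 for #1 against #2 and 0.97 for #2 against #3 and Pole2 at 0.68 for #1 against #3 (edgeR adjusted p = 2.42e-06, 1.67e-05 and 2.59e-06), and no other call was made among the 5 genes.

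Ratios of counts within a library do not depend on scaling between libraries. The log2 ratio of Pole4 to Chrac1 was 2.35 ± 0.18 (SD, n = 3) in WT#1, -1.54 ± 0.42 in POLE4-KO#1, -0.28 ± 0.44 in POLE4-KO#2 and -1.13 ± 0.55 in POLE4-KO#3. Pole4 therefore had more counts than Chrac1 in every WT#1 library and fewer in 8 of the 9 knockout libraries, the exception being library 3 of POLE4-KO#2 at 0.22. The log2 ratio of Pole4 to Pole3 was 1.08 ± 0.17 in WT#1, -3.16 ± 0.35 in POLE4-KO#1, -1.89 ± 0.31 in POLE4-KO#2 and -2.71 ± 0.56 in POLE4-KO#3. These are values without a test, since Pole4 is the targeted gene. The log2 ratio of Pole2 to Pole stayed between -2.71 and -2.04 in the 12 libraries.

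**Figure D2:**
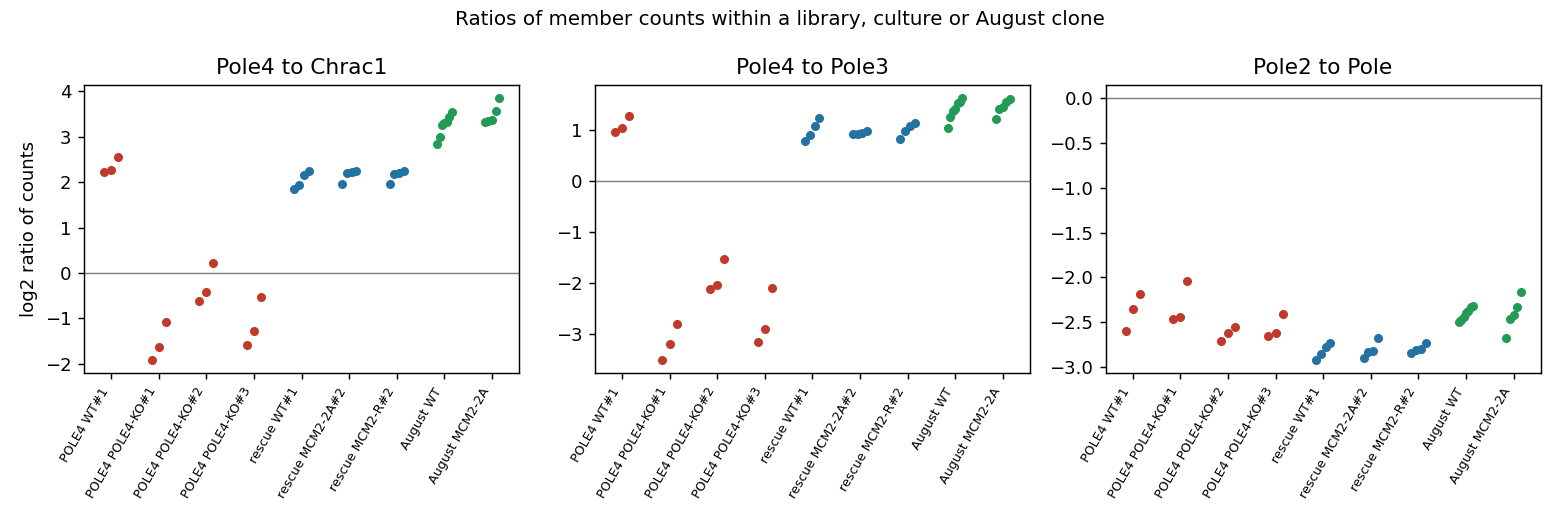
Log2 ratio of counts (vertical axis) of Pole4 to Chrac1, Pole4 to Pole3 and Pole2 to Pole, with 1 point per library of the POLE4 experiment (red), culture of the rescue experiment (blue) or August clone (green), sorted by value within a group. Both ratios with Pole4 drop in the knockout clones and the groups within each of the other experiments overlap.

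Around Pole4, Hk2, which encodes a hexokinase, was the only tested gene whose annotated start lies within 250 kb. It was not called in any of the 11 comparisons, and its log2 fold change was 0.18 (SE 0.08, edgeR adjusted p = 0.0926) in POLE4-KO#1, -0.01 (SE 0.08, adjusted p = 0.919) in POLE4-KO#2 and -0.21 (SE 0.08, adjusted p = 0.0827) in POLE4-KO#3. Within 5 Mb of Pole4, 8, 4 and 2 of 82 tested genes were called in clones #1, #2 and #3, with median log2 fold changes of 0.05, 0.02 and 0.01, against 11.5%, 11.3% and 2.98% of all genes called.

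Among 59 other genes of the replication fork and of histone handling, no gene was called by edgeR for the mean of the knockout clones or for POLE4-KO#1 against WT#1, with 14 and 29 genes at an unadjusted p under 0.05 and 0 called by DESeq2 in both. Across all genes, 5.74% and 11.5% were called in these comparisons. In POLE4-KO#2 and POLE4-KO#3 against WT#1, 2 and 1 of the 59 genes were called, against 11.3% and 2.98% of all genes. The median log2 fold change of the 59 genes was 0.17 in POLE4-KO#1, 0.07 in POLE4-KO#2 and -0.11 in POLE4-KO#3, against 0.01, 0.00 and 0.00 over all genes. In POLE4-KO#2, Wdhd1, a fork protein that binds polymerase alpha, fell by 0.95 (SE 0.07, edgeR adjusted p = 1.98e-07) and Supt16, a subunit of the histone chaperone FACT, fell by 0.90 (SE 0.08, edgeR adjusted p = 5.51e-07). In POLE4-KO#3, Baz1a, whose product is the large subunit of ACF and CHRAC, rose by 0.70 (SE 0.08, edgeR adjusted p = 2.49e-05). Its value was -0.36 in POLE4-KO#1 and -0.08 in POLE4-KO#2, and it was lower than in POLE4-KO#3 in both, by -1.06 and -0.78 (edgeR adjusted p = 2.76e-08 and 2.06e-06). Smarca5, the ATPase of the same complexes, was not called in any of these comparisons. Pold2, a subunit of the lagging-strand polymerase delta, was higher in POLE4-KO#1 than in POLE4-KO#3 by 0.72 (SE 0.09, edgeR adjusted p = 1.12e-05). In this comparison, where Pole2 was at 0.68 and Pole at 0.44, all 8 genes of the other replicative polymerases were above 0 (median 0.468). Of the 59 genes, 44 had an unadjusted edgeR p under 0.05, with 1 called higher and 1 lower. Their median was 0.26, against 0.025 over all genes, of which 16.5% were called.

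Of 10 genes of the replication stress and p53 response, 3 rose for the mean of the knockout clones, where 373 of all 16864 genes rose, Trp53inp1 by 0.87, Ccng1 by 0.61 and Mdm2 by 0.60 (edgeR adjusted p = 1.68e-05, 5.79e-05 and 0.000149). The cell-cycle inhibitor Cdkn1a fell in POLE4-KO#1 by 0.89 (SE 0.13, edgeR adjusted p = 0.000113). The S-phase cyclin Ccne2 rose in POLE4-KO#1 by 0.60 (SE 0.11, edgeR adjusted p = 0.000923), as 1 of 10 S-phase markers. In that comparison 11.5% of all genes were called, with 624 higher and 1317 lower. Trp53inp1 rose in each clone (0.74, 0.95 and 0.92 in #1, #2 and #3), Ccng1 and Mdm2 rose in POLE4-KO#2 (0.78 and 0.69) and POLE4-KO#3 (0.70 and 0.67), and Eda2r, a p53 target, rose in POLE4-KO#1 (0.60) and POLE4-KO#2 (0.59). These are 2, 4 and 3 of the 10 genes in clones #1, #2 and #3, where 624, 838 and 431 of all 16864 genes rose.

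Markers of other cells and of RNA quality moved with the same clones. Among the fibroblast markers, Col1a1 (-5.85 and -4.06), Col1a2 (-3.63 and -2.22) and Col3a1 (-3.40 and -2.03) fell in POLE4-KO#1 and POLE4-KO#2, Thy1 fell in POLE4-KO#1 (-1.25), and none was called in POLE4-KO#3 against WT#1. Of the 4 primitive endoderm markers tested, Dab2 fell in POLE4-KO#1 (-1.104), where the markers ran up to 0.419 and 1 was above 0. Pdgfra rose by 0.995 in POLE4-KO#2, where they ran from -0.667 to 1.115 and 3 were above 0. In POLE4-KO#3 all 4 were above 0 (median 0.704) without a call. Of all genes, 11.5%, 11.3% and 2.98% were called in clones #1, #2 and #3 against WT#1. Of the signs of RNA quality, mt-Cytb rose by 0.65 in POLE4-KO#1, and mt-Cytb, mt-Nd1, mt-Co1 and Neat1 rose by 0.87, 0.88, 0.70 and 0.60 in POLE4-KO#2. All 6 ESC markers were below 0 in POLE4-KO#3 against WT#1 (median -0.259), without a call. Between POLE4-KO#1 and POLE4-KO#3, 2 of the 6 were called, both higher in POLE4-KO#1, where 16.5% of all genes were called. The part of all these markers in the levels of the polymerase genes was not tested.

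In the rescue experiment, the question was whether the histone-binding mutation of MCM2, or its reversal, goes with another level of the polymerase subunits. Of the 5 genes, 0 were called by edgeR in any of the 3 comparisons of lines, 0 had an unadjusted p under 0.05 and 0 were called by DESeq2. Across all genes 2.76% were called for MCM2-2A#2 against WT#1, 1.37% for MCM2-R#2 against MCM2-2A#2 and 0.298% for MCM2-R#2 against WT#1. Pole4 had 42.7, 54.4, 47.2 and 39.2 CPM in WT#1, 43.4, 44.6, 43.6 and 40.6 in MCM2-2A#2 and 43.7, 43.0, 49.9 and 48.8 in MCM2-R#2. The lines overlap, and the log2 fold change of Pole4 in MCM2-2A#2 against WT#1 was -0.09 (SE 0.09, edgeR adjusted p = 0.513).

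Pole was at 119 ± 4.19 CPM in WT#1, 113 ± 6.76 in MCM2-2A#2 and 111 ± 4.96 in MCM2-R#2 (SD, n = 4). Pole2 was at 16.9 ± 1.19, 16.1 ± 1.03 and 16.0 ± 0.55 CPM, and Pole3 at 22.9 ± 0.43, 22.5 ± 0.63 and 23.3 ± 2.06 CPM. Chrac1 had 11.1, 11.47, 10.6 and 10.95 CPM in WT#1, 9.31, 11.49, 9.51 and 8.62 in MCM2-2A#2 and 9.28, 11.1, 10.9 and 10.7 in MCM2-R#2, so that culture 2 of MCM2-2A#2 lay just above WT#1 and its other cultures below. Its log2 fold change of -0.18 (SE 0.09, edgeR adjusted p = 0.215) was the largest in size among the 5 genes of this comparison. Among the 59 replication and histone handling genes, Mcm2 itself was the only called gene, and fell by 0.89 in MCM2-2A#2 and by 0.98 in MCM2-R#2 against WT#1 (edgeR adjusted p = 6.95e-08 and 2.31e-08). In the same comparison of MCM2-2A#2 with WT#1, all 5 primitive endoderm markers rose, from 1.44 for Gata4 to 2.29 for Gata6, with Dab2, Pdgfra and Sox17 between them. All 5 fell in MCM2-R#2 against MCM2-2A#2, and their part in the levels of the polymerase genes was not tested.

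**Figure D3:**
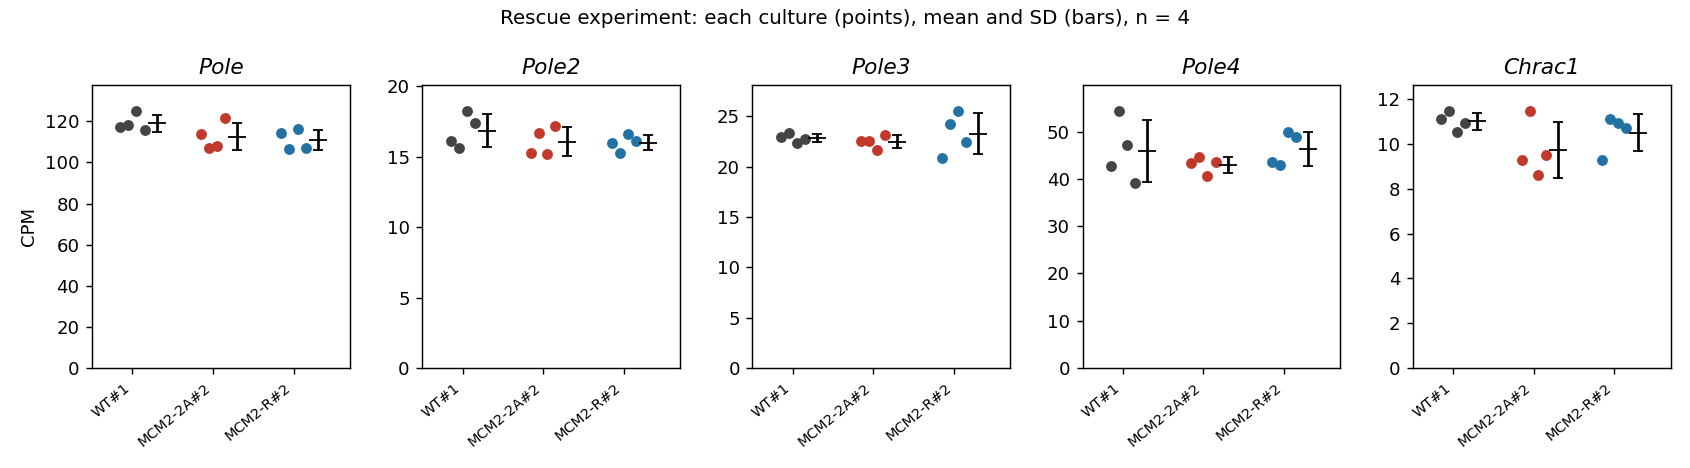
Level in CPM (vertical axis, from 0) of the 5 genes in the rescue experiment, with 1 point per culture and bars for the mean and SD of 4 cultures. WT#1, MCM2-2A#2 and MCM2-R#2 overlap for every gene, with Pole4 between 39.2 and 54.4 CPM.

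In the clone experiment, 0 of the 5 genes were called by edgeR between MCM2-2A and WT clones with the batch as a covariate, 1 (Chrac1) had an unadjusted p under 0.05 and 0 were called by DESeq2. Across all 20888 genes tested 0.742% were called. The log2 fold change was 0.07 for Pole (SE 0.08), 0.01 for Pole2 (SE 0.09), -0.04 for Pole3 (SE 0.05) and -0.03 for Pole4 (SE 0.10), with edgeR adjusted p values of 0.682, 0.973, 0.716 and 0.924. Chrac1 stood at -0.26 (SE 0.10, edgeR adjusted p = 0.139). Over the 24 alternatives its adjusted p ran from 0.0112 to 0.405, with no call. In the same comparison Gata6, Sox17 and Pdgfra rose by 1.69, 1.24 and 1.21, as 3 of 5 primitive endoderm markers, and their part in the level of Chrac1 was not tested.

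The August batch holds 7 WT and 5 MCM2-2A clones and gives a comparison within a batch. Chrac1 ran from 6.27 to 7.16 CPM over the WT clones (median 6.81) and had 4.57, 5.02, 5.87, 6.58 and 6.68 CPM in MCM2-2A#4, #5, #7, #8 and #6. The 3 lowest MCM2-2A clones lay below all WT clones, and the others within their range. The log2 fold change of Chrac1 within August was -0.24 (edgeR adjusted p = 0.229). The WT clone of January, WT#5, was not analysed here and March has 1 WT clone, so that neither gives a comparison of its own.

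Pole4 ran from 51.2 to 73.3 CPM in the August WT clones (median 66.4) and had 49.9, 66.0, 66.9, 68.6 and 69.6 CPM in the August MCM2-2A clones. MCM2-2A#5 was the lowest of these, WT#1 the lowest of the WT clones, and the genotypes overlap. The summed fibroblast markers were higher in the August clones with lower Pole4. They were 65.1, 60.9 and 81.5 CPM in MCM2-2A#5, WT#1 and WT#4, which had 49.9, 51.2 and 54.8 CPM of Pole4, and 3.94 to 20.03 CPM in the other August clones, which had 65.8 CPM of Pole4 or more. In January and March, MCM2-2A#1 and MCM2-2A#2, with 41.5 to 45.5 CPM of Pole4, had 48.6 to 87.6 CPM of these markers. WT#1 in March, with 58.6 CPM of Pole4, had 52.1, and MCM2-2A#3, with 63.2 CPM of Pole4, had 7.52. Lum, Dcn and Postn stayed below 1 CPM in every unit. Col1a1 reached 67.2 CPM, against at most 8.5 for Col3a1, 8.18 for Thy1 and 3.83 for Col1a2, so that the high sums are mostly Col1a1. The part of the fibroblast markers in the level of Pole4 was not tested. Pole ran from 107 to 139.6 CPM in WT and from 106 to 142 in MCM2-2A clones, Pole2 from 19.5 to 27.7 and from 20.8 to 27.7, and Pole3 from 23.1 to 25.5 and from 21.5 to 25.4. For Pole2 the highest WT clone, WT#6, was also the highest for Pole.

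The clones measured in more than 1 batch show how a clone varied between batches. WT#1 had 51.2 CPM of Pole4 in August and 58.6 in March, and 7.16 and 11.01 CPM of Chrac1. MCM2-2A#1 had 41.5 CPM of Pole4 in January and 42.9 in March, and 9.45 and 8.94 CPM of Chrac1.

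**Figure D4:**
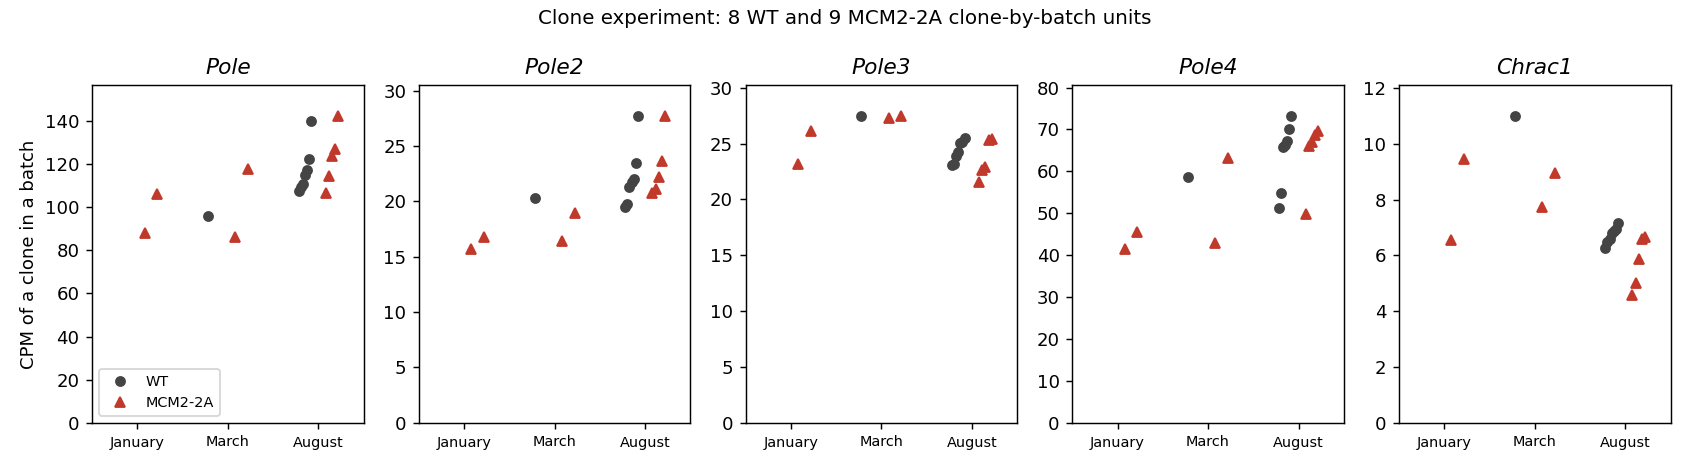
Level in CPM (vertical axis, from 0) of the 5 genes for each clone in each batch of the clone experiment, with WT clones as circles and MCM2-2A clones as triangles. In August 3 of 5 MCM2-2A clones lie below the WT range of 6.27 to 7.16 CPM for Chrac1, and the genotypes overlap for the other genes.

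In 12 tests of ratios between lines or genotypes, the lowest unadjusted p was 0.121. The log2 ratio of Pole4 to Chrac1 was 3.49 ± 0.23 (SD, n = 5) in August MCM2-2A clones and 3.24 ± 0.25 (SD, n = 7) in August WT clones, a difference of 0.25 (two-sided exact permutation test, p = 0.121, adjusted p = 1.0). In the rescue experiment the differences of this ratio ran from -0.01 to 0.10, with 4 cultures against 4, where the smallest p an exact permutation test allows is 0.0286, so that a single such test could not pass after adjustment over the 12.

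Over the 17 units of the clone experiment, after centring on the batch, Pole, Pole2 and Pole4 varied together (Pearson r of log2 CPM of 0.63 for Pole and Pole2, 0.66 for Pole and Pole4 and 0.60 for Pole2 and Pole4). Pole3 went with Chrac1 (r = 0.70) and hardly with Pole4 (r = 0.18), and Pole4 and Chrac1 were at -0.03. Within the 12 August units these values were 0.68, 0.57, 0.54, 0.71, 0.32 and 0.07. They are descriptions over units that share clones and batches. Among the genes most like Pole in this measure were Pfas and Vars2 (r = 0.93 and 0.92), those most like Pole2 were Kif22, Ceacam1 and Ceacam2 (0.95, 0.93 and 0.93), and those most like Pole4 were Yif1b, Dbp and Lrrcc1 (0.97, 0.96 and 0.96). For Pole3 they were Mvk, Gm13126 and Gm5881 (0.86, 0.85 and 0.84), and for Chrac1 Hmgb1-ps9, Rab5if and Gm48048 (0.92, 0.90 and 0.88), where Hmgb1-ps9 is a pseudogene that can share reads with its parent gene.

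**Figure D5:**
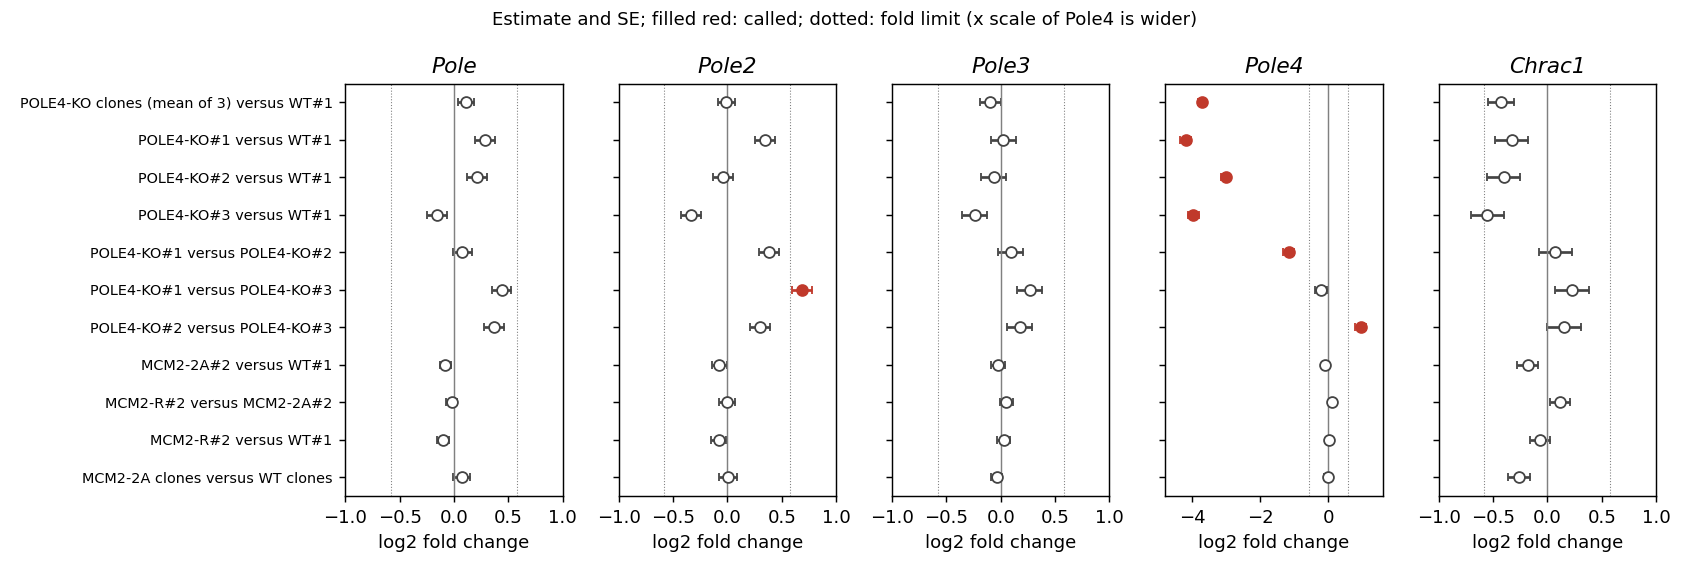
Log2 fold change (horizontal axis) with its SE for the 5 genes in the 11 comparisons (rows), with called values filled in red and the fold limit of 0.58 dotted (the axis of Pole4 is wider than the others). Calls are those of Pole4 in the comparisons with or between knockout clones, other than POLE4-KO#1 against POLE4-KO#3, and of Pole2 in that comparison.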

How the data were processed

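Per the labels, the authors used Trimmomatic 0.39 for trimming, STAR 2.7.1a for alignment (build mm10) and, for the POLE4 and clone tables, featureCounts. The counter of the rescue table, and whether strand was used in counting, are not given in the sources used here. The deposited values are raw counts per gene (55335 rows) and repeat subfamily (1146 rows). Symbols came from GENCODE vM21 (55154 rows matched). Technical runs of a culture were summed, and libraries of the clone experiment were summed per clone and batch. Runs of the same culture differed by more than counting alone gives. The chi-square per degree of freedom was 18.3 in WT#1 culture 3 and 13.7 in MCM2-2A#2 culture 4. MCM2-R#2 was measured in the first run only, and WT#1 and MCM2-2A#2 in both runs, so that run and line are partly mixed. Of 68 columns, 3 matched no sample and were not used, and WT#5 was not analysed here.

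Counts were fitted with edgeR 4.0.16 (R 4.3.3) by the quasi-likelihood test, with TMM factors from genes and filterByExpr (min.count 10, min.total.count 15) grouped by line, or by genotype in the clone experiment. P-values were adjusted by Benjamini-Hochberg over all genes of a table and comparison, and p-values measure the spread between the samples of a group. In the clone experiment, WT#1 and MCM2-2A#1 each enter once per batch, as units treated as independent. Alternatives were DESeq2 1.42.0 (adjusted over all genes with a p-value), RLE factors, no filter, left-out samples, a replicate block, run and batch choices. For the clone experiment, filter groupings by clone and by design matrix were added after seeing the data. The grouping by clone stood in place of the one by genotype for a time, with results in view, and the first choice was then restored. CPM use TMM-scaled totals, and log2 CPM a prior count of 2. Library numbers pair the knockout libraries: all 9 same-number pairs of libraries had correlated deviations from their clone means (r from 0.14 to 0.32), and 0 of 18 other pairs exceeded 0.1. The fits were tested on simulated data. In bulk samples, fewer cells of a type and less RNA per cell cannot be told apart.

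The genes, lists and comparisons were chosen with earlier results of these data known. Named are the 5 genes, called list genes, tested genes within 250 kb of the start of Pole4 and the 3 genes most correlated with each of the 5, of which 1 is not reported here.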

Additional observations from a re-analysis of the deposited data

Results flagged for a closer look

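Pole4 differed between knockout clones by a tested contrast, at a log2 fold change of -1.17 for POLE4-KO#1 against POLE4-KO#2 and 0.95 for POLE4-KO#2 against POLE4-KO#3, and Pole2 did so at 0.68 for POLE4-KO#1 against POLE4-KO#3.

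Among 35 groups of 4 to 10 samples checked for a sample that stands apart, 2 were flagged, where chance flags about 1 in 20. Pole4 in MCM2-2A#5 was 49.9 CPM in August, and the nearest of the other 4 August MCM2-2A clones was at 66.0. The summed fibroblast markers were 65.1 CPM in MCM2-2A#5 and 6.95 to 10.4 CPM in the other 4, and their part in this level was not tested. Chrac1 in WT#1 in March was 11.01 CPM, and the nearest of the other WT units was at 7.16. It is also the only WT unit of that batch, so that the clone's batch and its level cannot be told apart.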

How the results depend on the processing

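Pole4 stayed called in all alternatives of the comparisons of knockout clones with WT#1, and no other gene of the 5 gained or lost a call in any alternative. For MCM2-2A against WT clones (155 called), DESeq2 called 446, single libraries as units 863, August clones alone 47, and clones without WT#1 and MCM2-2A#2 11. Leaving out a clone gave 25 (without WT#1) to 174, with 81, 84, 90, 91 and 103 without MCM2-2A#4, #5, #6, #7 and #3 and 99 without WT#3. Filters grouped by clone or by design matrix, added after seeing the data, gave 148 and 158. The single-library replicate block gave 954. The rescue replicate block gave 603, 307 and 59 for MCM2-2A#2 against WT#1, MCM2-R#2 against MCM2-2A#2 and MCM2-R#2 against WT#1, where 472, 234 and 51 were called without it. Whether numbers pair the rescue cultures is unclear, since 5 of 12 same-number pairs and 6 of 36 others exceeded r = 0.1. Same-number pairs ran from -0.1 to 0.394 and the others from -0.301 to 0.251. Between knockout clones the block gave 1925, 2998 and 2079 genes for #1 against #2, #1 against #3 and #2 against #3, where 1675, 2781 and 1725 were called without it. No replicate block moved a count by over 1.5 times but that of the clone experiment. WT#1 libraries carry no matching number there. Without a low-count filter, 792 genes were called for MCM2-2A#2 against WT#1, 584 for MCM2-R#2 against MCM2-2A#2, 87 for MCM2-R#2 against WT#1 and 847 for POLE4-KO#3 against WT#1. For MCM2-R#2 against MCM2-2A#2, DESeq2 called 388 and the run covariate 374. The 9 knockout libraries as 1 group gave 23 in place of 968, Pole4 among them. Leaving out a sample gave 288 to 516 for MCM2-2A#2 against WT#1 (301 and 288 without MCM2-2A#2 culture 1 or 2), 117 to 269 for MCM2-R#2 against MCM2-2A#2 (117 and 119 without MCM2-2A#2 culture 1 or 2, 130 and 121 without MCM2-R#2 culture 1 or 2) and 317 to 536 for POLE4-KO#3 against WT#1 (332 and 317 without WT#1 library 1 or 3). The causes were not tested.

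Values near 0 that were not called changed sign. Pole2 for MCM2-2A against WT clones was 0.00 with DESeq2, -0.007 with the filter grouped by clone, -0.019 without a filter and -0.011 with single libraries. For MCM2-R#2 against MCM2-2A#2, Pole was 0.003 with the run covariate, and Pole2 0.009 without a filter, 0.043 with the run covariate and 0.013 with the first run only. Pole4 was -0.044 for MCM2-R#2 against WT#1 with the run covariate, and Pole2 0.019 with the 9 knockout libraries as 1 group. Over left-out samples, sign changes fell in these ranges: for MCM2-2A against WT clones Pole2 -0.064 to 0.053 and Pole4 -0.071 to 0.023. For MCM2-R#2 against MCM2-2A#2, Pole ran from -0.045 to 0.022 and Pole2 from -0.032 to 0.034. For MCM2-R#2 against WT#1, Pole3 ran from -0.019 to 0.077 and Pole4 from -0.054 to 0.104. For the mean of knockout clones, Pole2 ran from -0.065 to 0.021 and Pole3 from -0.17 to 0.003. For POLE4-KO#1 against POLE4-KO#2, Chrac1 ran from -0.057 to 0.183 and Pole3 from -0.003 to 0.16. Pole4 ran from -0.369 to 0.05 for POLE4-KO#1 against POLE4-KO#3. Pole3 ran from -0.07 to 0.124 for POLE4-KO#1 and from -0.142 to 0.031 for POLE4-KO#2 against WT#1.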
